A study of Mus musculus with 7 samples.

Results

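The genes described here carry the making of nitric oxide and the handling of arginine: Nos2, Nos1, Gch1, Ass1, Asl, Arg2 and Slc7a2. These 7 genes, of 51912 in the table, were chosen by symbol with earlier results of the same counts known, among them levels by the style of the library descriptions, and all 7 passed the filter on low counts. No threshold was set. Levels and differences by that style are therefore a description with no test.

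Messenger RNA was sequenced in 7 libraries from isolated islets of db/db mice, a strain with obesity and diabetes caused by loss of leptin signalling. For 3 libraries the mice had received an adeno-associated virus (AAV) for adipsin (AAV-Adipsin). For the other 4 they had received an AAV for green fluorescent protein (AAV-GFP). In both groups the islets were taken 4 weeks after the vector and kept in culture for 12 hours. The sample titles give a group and a replicate number, and each library was taken as a separate mouse. The labels give neither the age of the mice nor the promoter of the vector. All mice carried the db mutation and a vector, so every value describes cultured islets of vector-treated diabetic mice. Total counts ran from 31255734 to 39281934 in AAV-Adipsin and from 29601707 to 43997400 in AAV-GFP. The 10 beta cell markers summed to 164159 to 204436 CPM in AAV-Adipsin and 173264 to 203220 CPM in AAV-GFP, where CPM is the counts-per-million value after library scaling. Ins2 alone stood at 108608 to 137638 CPM over all libraries, so the sum says little about the weaker markers.

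In their descriptions, replicate 1 of each group bears the treatment's name, while the other 5 libraries bear a db number. These 2 treatment-named libraries stood apart from the 5 db-numbered ones: for 37.6% of the 16504 genes tested the sets did not overlap, in either direction. What the naming stands for is not stated. Both treatments occur in both styles, so each treatment comparison is given pooled and within each style.

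Nitric oxide synthases convert arginine to citrulline and nitric oxide. The inducible enzyme, encoded by Nos2, is switched on at the transcript level by inflammatory cytokines, in beta cells as well as in macrophages, and works without a calcium signal. The neuronal enzyme, encoded by Nos1, depends on calcium and calmodulin. Both need tetrahydrobiopterin, whose first and rate-limiting step is GTP cyclohydrolase, the product of Gch1. Ass1 and Asl encode argininosuccinate synthase and lyase, which rebuild arginine from citrulline. Slc7a2 encodes a cationic amino acid transporter that brings arginine into cells, and Arg2 encodes the mitochondrial arginase, which draws on the same arginine.

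Nos2 (ENSMUSG00000020826) lies on chromosome 11 from 78920787 to 78960254 of GRCm38, plus strand. It had 4, 1100 and 1361 counts in AAV-Adipsin replicates 1 to 3, against 10, 901, 822 and 888 counts in AAV-GFP replicates 1 to 4. As CPM this was 0.104, 34.9 and 34.1 in AAV-Adipsin, against 0.222, 29.3, 21.4 and 30.6 in AAV-GFP. Replicate 1 of each group was thus close to 0 and the 5 db-numbered libraries all stood above 20 CPM, so the treatment groups overlapped and the description styles did not.

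The 14 Nos2 counts of the treatment-named libraries, set against 5072 in the db-numbered ones, correspond to a rate 178-fold lower in the treatment-named libraries, with a 95% interval from 106-fold to 326-fold (Clopper-Pearson, counting error only). For AAV-Adipsin replicate 1 the exact 95% Poisson interval of the level was 0.0283 to 0.266 CPM, and for AAV-GFP replicate 1 it was 0.107 to 0.409 CPM, so the counts do not separate these 2 libraries. On the log2 CPM scale (prior count 2) the difference, treatment-named minus db-numbered, was -7.14. In size this was number 1 of the 16504 genes tested, of which 3.55% differed by more than 1 in either direction. The next 4 genes in that order, looked up after the values were seen, were Serpina3f (-6.40), Steap4 (-5.84), Ccl20 (-5.39) and Acod1 (-5.23).

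**Figure D1:**
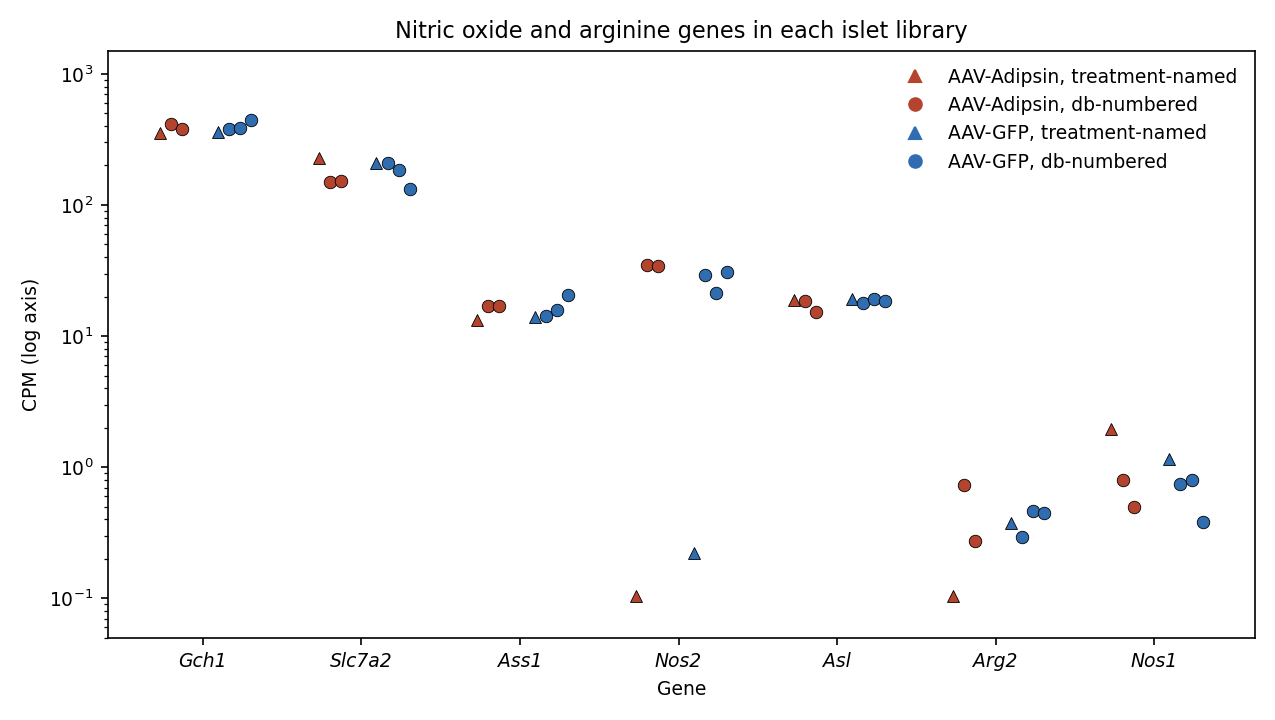
CPM on a log axis of each of the 7 genes in each library, AAV-Adipsin in red left of AAV-GFP in blue. Triangles are the treatment-named libraries and circles the db-numbered ones, 1 symbol per library. Nos2 sits at 0.104 and 0.222 CPM in the triangles and between 21.4 and 34.9 CPM in the circles, while Gch1, Ass1 and Asl each stay within a narrow band.

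By treatment, Nos2 averaged 23.0 ± 19.8 CPM in AAV-Adipsin (SD, n = 3) and 20.4 ± 14.0 CPM in AAV-GFP (SD, n = 4). The log2 fold change, AAV-Adipsin over AAV-GFP, was 0.18 (SE 1.52), and it did not pass in edgeR's quasi-likelihood test (Benjamini-Hochberg adjusted p = 1.00). Within the treatment-named pair the difference in log2 CPM was -0.80, on 4 and 10 counts. Among the db-numbered libraries it was 0.37, and there the 2 AAV-Adipsin values lay above all 3 AAV-GFP values, as was the case for 8% of the genes tested. With description style as a batch edgeR gave 0.29 (adjusted p = 0.999), and without both treatment-named libraries 0.36 (adjusted p = 1.00). Leaving out single libraries turned the sign of the pooled value in 3 of 7 fits: to -0.24 when AAV-Adipsin replicate 2 was dropped, to -0.20 when AAV-Adipsin replicate 3 was dropped and to -0.22 when AAV-GFP replicate 1 was dropped. It reached 0.77 when AAV-Adipsin replicate 1 was dropped and 0.45 and 0.42 when AAV-GFP replicate 4 or 2 was dropped. None of these fits called Nos2.

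In whole islets, fewer cells of a type and less RNA per cell cannot be told apart. The 12 macrophage markers, among them Csf1r and Adgre1, summed to 139 to 153 CPM in the treatment-named libraries, against 146 to 330 CPM in the db-numbered ones. None of the 12 was at 0 in all libraries, and 3 of them (C1qa, C1qc and Msr1) were lower in the treatment-named libraries without overlap, a share near the 18.9% of all genes tested in that direction. The median difference of the 12, treatment-named minus db-numbered, was -0.54 in log2 CPM, against 0.004 over all genes tested. Only Mrc1 went the other way, at 0.31. By treatment all 12 had a fitted log2 fold change above 0, AAV-Adipsin over AAV-GFP, with a median of 0.60, and 0 passed in edgeR. Over all genes tested, 7621 of 16504 fitted values were above 0. AAV-Adipsin replicate 2 held the highest macrophage sum. AAV-Adipsin replicate 1 had a macrophage sum of 153 CPM with Nos2 at 0.104 CPM, and AAV-GFP replicate 3 had a sum of 146 CPM with Nos2 at 21.4 CPM. The 13 acinar markers, which mark digestive enzyme cells around islets, summed to 3793 to 5018 CPM in the treatment-named libraries and 2608 to 17013 CPM in the db-numbered ones, with Amy2a5 at 0 throughout. The median style difference of the 12 acinar markers tested was -0.96 in log2 CPM, treatment-named minus db-numbered. AAV-GFP replicate 4 had the lowest acinar sum and 30.6 CPM of Nos2. Of the 10 beta cell markers, 4 (Iapp, Slc2a2, Slc30a8 and Ucn3) were higher in the treatment-named libraries without overlap, and 1 (G6pc2) was lower. Of all genes tested, 18.7% were higher and 18.9% lower in that way. By treatment 9 of the 10 beta cell markers had a fitted log2 fold change below 0, and 0 passed in edgeR. Whether these cells have a part in the Nos2 values was not tested.

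Genes of the cytokine signalling that switches on Nos2 were followed as a list of 13. Of the 12 tested, 8 did not overlap between styles, and all 8 were lower in the treatment-named libraries, beside 18.9% of all genes tested that did not overlap in that direction. As the listing of Nos2 used the same contrast, nothing is read from that count. The median difference of the list, treatment-named minus db-numbered, was -0.44 in log2 CPM, against 0.004 over all genes tested.

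Tnf, a cytokine and itself a target of NF-kB, had 0.156 and 0.267 CPM in the treatment-named libraries of AAV-Adipsin and AAV-GFP, against 2.63 and 2.40 CPM in the db-numbered AAV-Adipsin and 1.69, 1.59 and 2.76 CPM in the db-numbered AAV-GFP libraries. Nfkbia, the NF-kB inhibitor that NF-kB itself induces, had 47.9 and 48.8 CPM in the treatment-named libraries, against 135 to 171 CPM in the db-numbered ones. Ifngr2, a chain of the interferon gamma receptor, had 20.6 and 20.8 CPM against 51.0 to 70.5 CPM in the same order of styles. These 3 genes were singled out after their values were seen. Ifng had no count in any library. Il1r1, the interleukin-1 receptor of islet cells, stood at 835 and 802 CPM in the treatment-named libraries of AAV-Adipsin and AAV-GFP and between 638 and 830 CPM in the others, so it overlapped. Irf1, an interferon-responsive transcription factor, had 69.9 and 72.2 CPM against 90.6 to 105 CPM, again without overlap.

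By treatment none of these cytokine genes passed. The log2 fold change, AAV-Adipsin over AAV-GFP, stood at -0.07 for Il1r1 (SE 0.12) and at -0.01 for Irf1 (SE 0.16), and the smallest edgeR adjusted p in the list of 12 was 1.00. No gene of this list had an unadjusted p under 0.05, beside 1.16% of all genes tested.

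**Figure D2:**
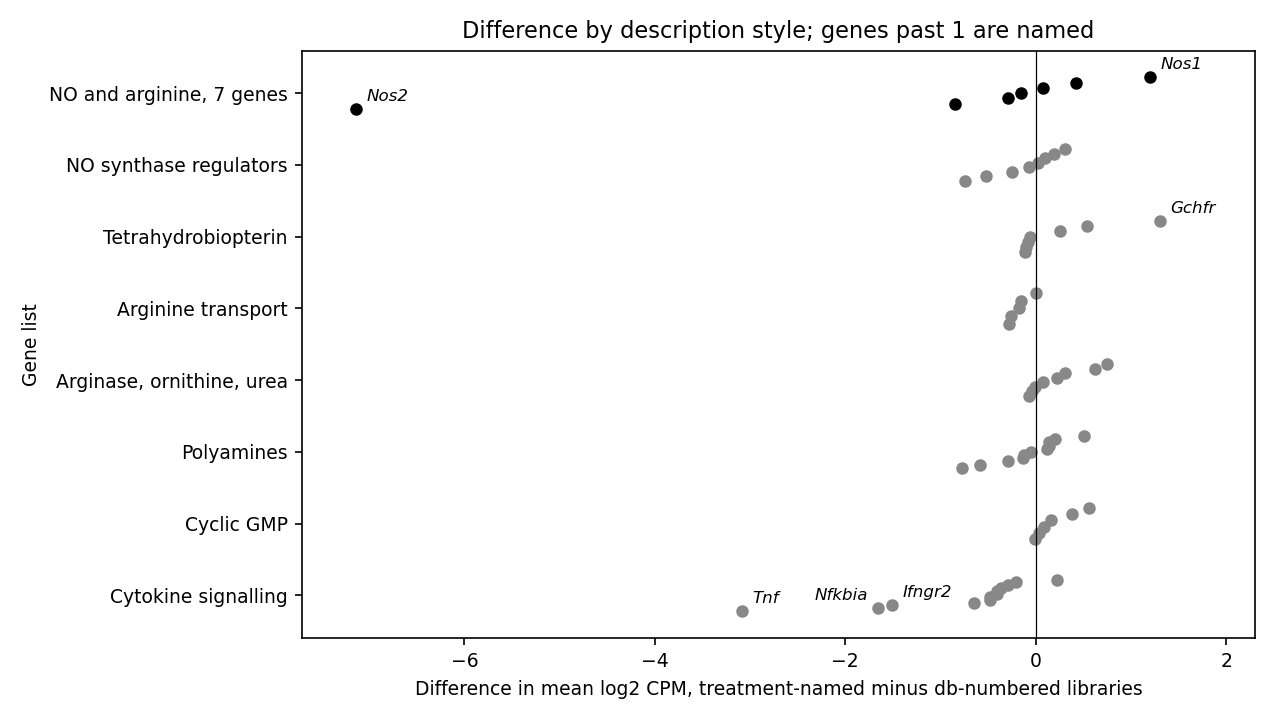
Difference in mean log2 CPM, treatment-named minus db-numbered libraries, for the tested genes of each list, 1 point per gene; the 7 genes are black and genes past 1 in either direction are named. Nos2 stands at -7.14 and Nos1 at 1.20, while the other pathway genes except Gchfr, at 1.31, lie within 1 of 0.

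Nos1 (ENSMUSG00000029361, chromosome 5 from 117781032 to 117958840, plus strand) was weakly expressed and ran the other way by style. It had 75, 25 and 20 counts in AAV-Adipsin against 52, 23, 31 and 11 in AAV-GFP. The values were 1.94, 0.793 and 0.501 CPM in AAV-Adipsin, against 1.16, 0.747, 0.806 and 0.380 CPM in AAV-GFP. The 2 treatment-named libraries were the highest and did not overlap with the db-numbered ones, as held for 18.7% of genes tested in that direction. The exact 95% Poisson intervals of AAV-GFP replicate 1, from 0.864 to 1.52 CPM, and AAV-GFP replicate 3, from 0.547 to 1.14 CPM, do overlap. The mean was 1.08 ± 0.764 CPM in AAV-Adipsin (SD, n = 3) and 0.772 ± 0.318 CPM in AAV-GFP (SD, n = 4), with a log2 fold change of 0.47 (SE 0.51) that did not pass (edgeR adjusted p = 1.00). Within the treatment-named pair Nos1 differed by 0.72 in log2 CPM, and among the db-numbered libraries by 0.04. The fitted value turned to -0.28 when AAV-Adipsin replicate 1 was left out.

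The 7 neuronal and Schwann cell markers summed to 76.2 and 81.4 CPM in the treatment-named libraries, against 63.5 to 78.2 CPM in the db-numbered ones. Most of that sum came from Uchl1, at 25.4 to 41.1 CPM, and Elavl4, at 28.9 to 38.7 CPM, and both overlapped between styles. Prph, a neuronal filament gene, had 41 counts in AAV-Adipsin replicate 1 and 1 to 4 counts in every other library. Elavl3 had 6 and 5 counts in the treatment-named libraries of AAV-Adipsin and AAV-GFP, against 0 to 1 in the db-numbered ones. It was thus higher in the treatment-named libraries without overlap, as Nos1 was, on too few counts to pass the filter. The glial genes S100b and Sox10 ran the other way. S100b had 0.882 and 0.556 CPM in the treatment-named libraries of AAV-Adipsin and AAV-GFP, against 1.14 to 1.62 CPM in the db-numbered ones, and Sox10 differed by -0.75 in log2 CPM with overlap. Their part in the Nos1 values was not tested. An antisense gene, Gm26995, lies inside Nos1 over 3794 bases, and whether the counting used strand is not stated.

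Gch1 (ENSMUSG00000037580, chromosome 14 from 47153895 to 47189413, minus strand) had the highest counts of the 7 genes in every library. It had 356, 412 and 383 CPM in AAV-Adipsin, against 363, 376, 390 and 442 CPM in AAV-GFP. The treatment groups overlapped, with means of 384 ± 28.0 CPM in AAV-Adipsin (SD, n = 3) and 393 ± 34.5 CPM in AAV-GFP (SD, n = 4) and a log2 fold change of -0.03 (SE 0.10, edgeR adjusted p = 1.00). The treatment-named libraries were the lowest 2, at a difference of -0.15 in log2 CPM from the others. By treatment Gch1 differed by -0.03 in log2 CPM in the treatment-named pair and by -0.02 among the db-numbered libraries.

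Promoter sequences were looked up for the 7 genes in RefSeq (GRCm38.p6), from 250 bases before to 50 after the start. Ass1, Nos1 and Gch1 had an entry; Nos2, Asl, Arg2 and Slc7a2 did not. Those of Nos1 and Gch1 are shown because these genes lie at the opposite ends of the levels per length and differ in opposite directions by style. The RefSeq start of Nos1 lies inside the GENCODE gene, downstream of its first base. The motifs, chosen after these sequences were seen, were searched on both strands: a 10-letter NF-kB form (3 G, any 2 bases, 3 T, 2 C), the gamma-activated site TTCNNNGAA, the cyclic AMP response element core TGACG, the box named CCAAT, and the E-box CACGTG. No matches overlap each other. Capitals mark matches, read 5′ to 3′ on the strand of the gene.
Nos1, chr5:117866589-117866888, plus strand: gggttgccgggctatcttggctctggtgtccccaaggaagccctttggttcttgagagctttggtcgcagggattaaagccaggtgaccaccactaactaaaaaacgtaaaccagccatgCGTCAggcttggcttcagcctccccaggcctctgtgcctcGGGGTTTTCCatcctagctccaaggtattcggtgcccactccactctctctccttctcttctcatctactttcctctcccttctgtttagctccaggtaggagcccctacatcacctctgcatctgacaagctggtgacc
Gch1, chr14:47189364-47189663, minus strand: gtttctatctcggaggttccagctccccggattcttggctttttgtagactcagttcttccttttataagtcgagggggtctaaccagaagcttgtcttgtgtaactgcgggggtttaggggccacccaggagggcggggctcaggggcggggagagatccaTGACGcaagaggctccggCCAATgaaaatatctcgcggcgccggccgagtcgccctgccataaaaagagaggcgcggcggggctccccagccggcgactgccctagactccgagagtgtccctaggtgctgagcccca

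The Nos1 window holds the NF-kB form, whose first base lies at -90 from the start, and TGACG on the opposite strand at -130. The Gch1 window holds TGACG at -88 and CCAAT at -70 and no match to the NF-kB form. The Ass1 window, not printed, holds the E-box at -36 and no other match. Among 32851 RefSeq promoters of 300 bases, 1.63% hold the NF-kB form, 20.8% TGACG, 37.4% CCAAT, 8.30% the gamma-activated site and 7.15% the E-box. A match is a string of letters and not a measured binding site, and no match says only that the letters are not in this window.

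Transcripts of the enzymes that rebuild arginine from citrulline ran from 13.3 to 20.4 CPM over all libraries. Ass1 (ENSMUSG00000076441, chromosome 2 from 31470207 to 31520672, plus strand) had 13.3, 16.8 and 16.9 CPM in AAV-Adipsin, against 14.0, 14.2, 15.7 and 20.4 CPM in AAV-GFP. The groups overlapped, and the log2 fold change was -0.04 (SE 0.16, edgeR adjusted p = 1.00). In log2 CPM Ass1 differed by -0.07 in the treatment-named pair and by 0.02 among the db-numbered libraries. The treatment-named libraries were the lowest 2 for Ass1 as they were for Gch1, at -0.29 in log2 CPM from the others. Asl (ENSMUSG00000025533, chromosome 5 from 130011258 to 130029247, minus strand) had 18.8, 18.7 and 15.4 CPM in AAV-Adipsin, against 19.0, 17.9, 19.3 and 18.6 CPM in AAV-GFP. Neither treatment groups nor styles of Asl were separate, with a log2 fold change of -0.08 (SE 0.10, edgeR adjusted p = 1.00) and a style difference of 0.08. By treatment Asl differed by -0.01 in log2 CPM in the treatment-named pair and by -0.13 among the db-numbered libraries.

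AAV-GFP replicate 4 was the highest library for both Gch1 and Ass1. It also had the highest sums of 3 marker lists. The 9 mesenchymal markers summed to 351 CPM there, against 92.4 to 214 CPM in the other libraries. The 5 delta cell markers summed to 967 CPM, against 489.9 to 642 CPM, and the 9 endothelial markers to 661 CPM, against 411 to 601 CPM. Most of the delta cell sum there was Sst, at 880 CPM. Ghsr among the delta cell markers and Pdgfra among the mesenchymal ones were each higher in another library. Among the endothelial markers Plvap, at 187 CPM there and at most 131 CPM elsewhere, Emcn and Esam were highest in AAV-GFP replicate 4. Pecam1, Cdh5, Kdr, Erg, Tie1 and Tek were each higher in another library. None of these markers was at 0 in all libraries. The part of these cells in the Gch1 and Ass1 values was not tested.

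Slc7a2 (ENSMUSG00000031596, chromosome 8 from 40862396 to 40922308, plus strand) followed Gch1 in counts in every library. It had 226, 149 and 151 CPM in AAV-Adipsin, against 211, 208, 184 and 133 CPM in AAV-GFP. The treatment-named libraries held the 2 highest values, the second of them only just above AAV-GFP replicate 2, and the treatment groups overlapped. The mean was 175 ± 44.1 CPM in AAV-Adipsin (SD, n = 3) and 184 ± 35.9 CPM in AAV-GFP (SD, n = 4), with a log2 fold change of -0.07 (SE 0.20, edgeR adjusted p = 1.00). It differed by 0.10 in the treatment-named pair and by -0.20 among the db-numbered libraries. The 7 alpha cell markers summed to 9929 and 9964 CPM in the treatment-named libraries, against 7036 to 9498 CPM in the others, and their part in the Slc7a2 values was not tested.

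Arg2 (ENSMUSG00000021125, chromosome 12 from 79130777 to 79156301, plus strand) was near the limit of detection. It had 4, 23 and 11 counts in AAV-Adipsin against 17, 9, 18 and 13 in AAV-GFP, or 0.104, 0.730 and 0.275 CPM in AAV-Adipsin against 0.378, 0.292, 0.468 and 0.449 CPM in AAV-GFP. AAV-Adipsin held both the lowest and the highest library, and the log2 fold change was -0.14 (SE 0.57, edgeR adjusted p = 1.00). It was 0.31 without AAV-Adipsin replicate 1, and -1.04 at the lowest among the fits without 1 library. In log2 CPM Arg2 differed by -1.45 in the treatment-named pair, on 4 and 17 counts, and by 0.18 among the db-numbered libraries. On the opposite strand Vti1b shares 285 bases with Arg2 and the antisense gene Gm48780 shares 997, so Arg2 counts are uncertain without a stated strand setting.

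Levels were compared between the 7 genes per kilobase of merged exons, as means over all 7 libraries. Gch1 led at 62.2 CPM per kilobase, followed by Slc7a2 at 19.8, Ass1 at 6.59, Nos2 at 4.87, Asl at 3.77, Arg2 at 0.270 and Nos1 at 0.0811 CPM per kilobase. The ranges over libraries of Gch1 and Slc7a2 did not overlap, nor did those of Slc7a2 and Ass1 or of Asl and Arg2. The ranges of Ass1 and Nos2, of Nos2 and Asl, and of Arg2 and Nos1 did. In the db-numbered libraries Nos2 lay between 4.84 and 7.91 CPM per kilobase. In the treatment-named libraries it lay at 0.0235 and 0.0504 CPM per kilobase, below Nos1 at 0.174 and 0.104.

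Between treatments, 0 of the 7 genes passed in edgeR, beside 0.00606% of all genes tested (1 gene, Cfd, which encodes adipsin). None had an unadjusted p under 0.05, none was separated by treatment, beside 2.73% of all genes, and DESeq2 and limma-voom also called 0 of the 7. The median log2 fold change of the 7 was -0.04, against -0.01 over all genes tested. By style 5 of the 7 did not overlap, beside 37.6% of all genes, with Nos2, Gch1 and Ass1 lower and Nos1 and Slc7a2 higher in the treatment-named libraries.

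**Figure D3:**
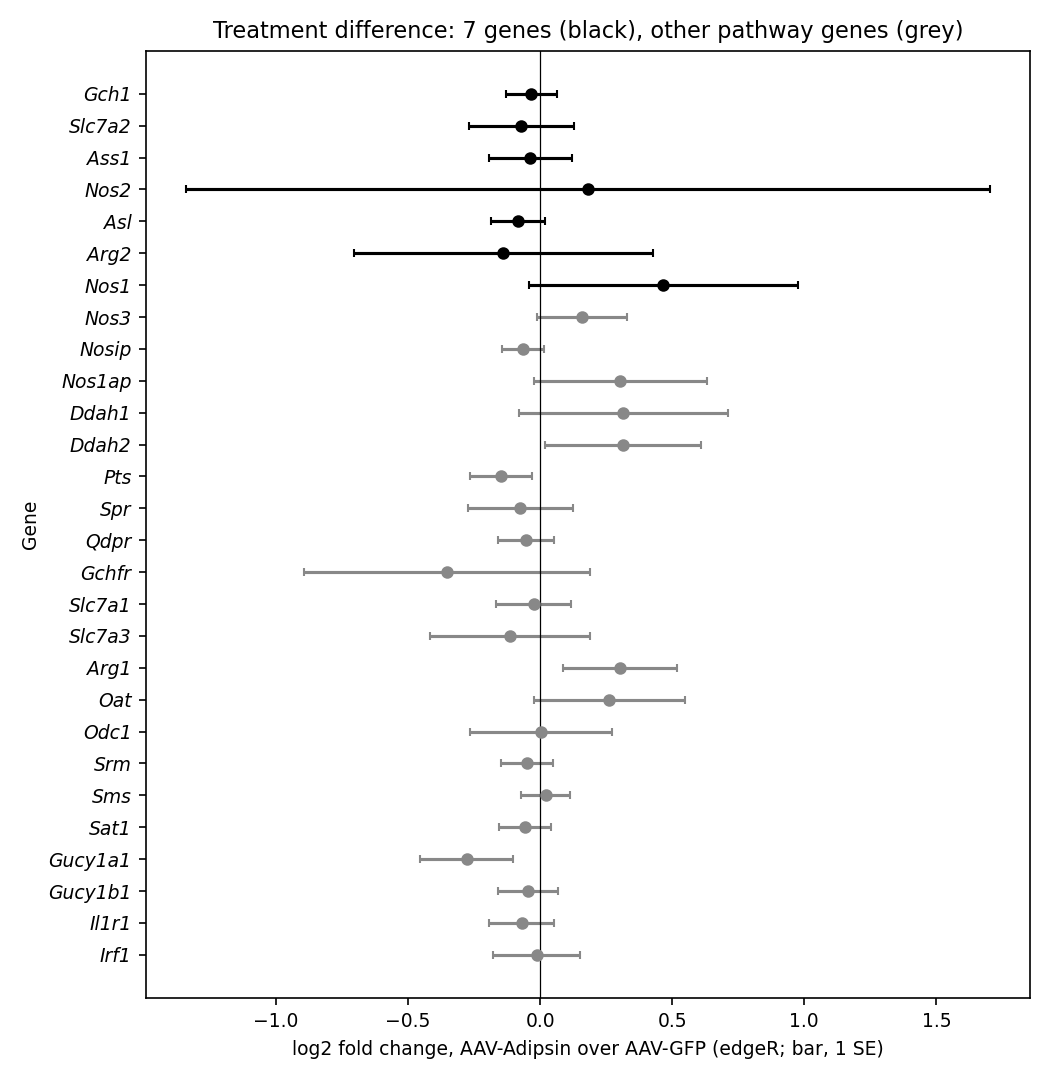
Log2 fold change of AAV-Adipsin over AAV-GFP by edgeR with bars of 1 SE, for the 7 genes (black) and for other named pathway and cytokine genes (grey), 3 against 4 libraries. The bar of Nos2 (SE 1.52) is the widest, and no gene shown passed the adjusted threshold.

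The other genes of nitric oxide and arginine metabolism were taken as 6 lists with 49 genes, of which 45 were tested. In edgeR 0 passed in either direction and 0 had an unadjusted p under 0.05, and DESeq2 and limma-voom called 0. Of the 45, 16 had a fitted log2 fold change above 0 and 29 below 0, with a median of -0.05. Over all 16504 genes tested 7621 were above 0 and 8883 below 0, with a median of -0.01. All log2 fold changes in the next paragraphs are AAV-Adipsin over AAV-GFP, and each has an edgeR adjusted p of 1.00.

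Among the synthases and their regulators, 0 of 8 passed. Nos3, the endothelial synthase, averaged 6.82 ± 0.186 CPM in AAV-Adipsin (SD, n = 3) and 6.11 ± 1.13 CPM in AAV-GFP (SD, n = 4), with a log2 fold change of 0.16 (SE 0.17). Ddah1 and Ddah2 encode enzymes that clear methylated arginines, which inhibit nitric oxide synthases. Their log2 fold changes were 0.31 (SE 0.40) and 0.31 (SE 0.30). Nosip and Nos1ap, which encode binding partners of the synthases, stood at -0.06 and 0.30, and Dynll1, a dynein light chain that binds the neuronal synthase, at -0.11.

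Of the 7 genes of tetrahydrobiopterin supply, 0 passed and all 7 fitted values were below 0, the lowest Gchfr at -0.35 (SE 0.54). Over all genes tested, 8883 of 16504 fitted values were below 0. Pts and Spr, which complete the synthesis after Gch1, stood at -0.15 (SE 0.12) and -0.07 (SE 0.20), Qdpr, which regenerates the cofactor, at -0.05 (SE 0.11), and Pcbd1 and Pcbd2, which encode dehydratases of the same recycling, at -0.11 (SE 0.10) and -0.23 (SE 0.15). These last genes were the 2 of the 45 without overlap by treatment, beside 2.73% of all genes tested, a count close to that background. Pcbd2 had 13.8, 13.5 and 13.8 CPM in AAV-Adipsin against 14.5, 14.3, 14.8 and 20.8 CPM in AAV-GFP. Gchfr, the feedback regulator of GTP cyclohydrolase, had 1.17 and 1.62 CPM in the treatment-named libraries of AAV-Adipsin and AAV-GFP, against 0.317 to 0.725 CPM in the db-numbered ones. Spr had 46.2 and 45.4 CPM in the treatment-named libraries, against 27.9 to 37.1 CPM in the db-numbered ones. Both were thus separate by style in the direction opposite to Gch1.

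None of the 5 arginine transport genes passed. Slc7a1, the other main cationic amino acid transporter, had 152 ± 9.44 CPM in AAV-Adipsin (SD, n = 3) and 155 ± 29.6 CPM in AAV-GFP (SD, n = 4), and a log2 fold change of -0.02 (SE 0.14). Slc7a3, a related transporter, stood at -0.12 (SE 0.30), Slc3a2, the heavy chain of several amino acid transporters, at -0.14 (SE 0.11), and Slc7a7 at 0.26 (SE 0.23).

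Of the 12 genes of arginase, ornithine and the urea cycle, 8 were tested and 0 passed. Arg1, the cytosolic arginase, averaged 54.7 ± 18.0 CPM in AAV-Adipsin (SD, n = 3) and 44.4 ± 7.80 CPM in AAV-GFP (SD, n = 4), with a log2 fold change of 0.30 (SE 0.22). Its highest value, 75.5 CPM, was in AAV-Adipsin replicate 2, the library with the highest macrophage sum, 330 CPM; the part of these cells in it was not tested. Oat, which turns ornithine towards glutamate and proline, stood at 0.26 (SE 0.29) and Gamt, an enzyme of creatine synthesis, at -0.38 (SE 0.31). Cps1, the first enzyme of the urea cycle in the liver, had no count in any library.

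Among the 11 polyamine genes and the 6 of cyclic GMP signalling, 0 passed. Odc1, which makes putrescine from ornithine, averaged 160 ± 52.9 CPM in AAV-Adipsin (SD, n = 3) and 160 ± 39.5 CPM in AAV-GFP (SD, n = 4), a log2 fold change of 0.004 (SE 0.27). By style Odc1 was separate, with 99.99 and 111 CPM in the treatment-named libraries of AAV-Adipsin and AAV-GFP, against 150.4 to 205 CPM in the db-numbered ones. Srm, Sms and Sat1, which make spermidine and spermine and acetylate them, stood at -0.05, 0.02 and -0.06, Amd1 at -0.20 (SE 0.19) and Paox at -0.13. Gucy1a1 and Gucy1b1, the subunits of the guanylate cyclase that senses nitric oxide, stood at -0.28 (SE 0.18) and -0.05 (SE 0.11), and Gucy1a2 at 0.40 (SE 0.25).

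The genes whose profile over the 7 libraries was most like that of Nos2 were Cdc25a (Pearson r of log2 CPM 0.9997), Birc3 (0.9991) and Slc11a2 (0.9988), out of 11918 candidates. With 2 libraries far from 5, such correlations follow the style difference, and they are given as a description with no p. Cdc25a, a cell cycle phosphatase, had 31.9 and 33.8 CPM in the treatment-named libraries of AAV-Adipsin and AAV-GFP, against 49.4 to 52.0 CPM in the db-numbered ones. Birc3, an inhibitor of apoptosis protein, had 14.3 and 17.4 CPM against 86.6 to 109.7 CPM in the same order of styles. Slc11a2, an iron transporter, had 30.7 and 33.3 CPM against 66.0 to 72.8 CPM.

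**Figure D4:**
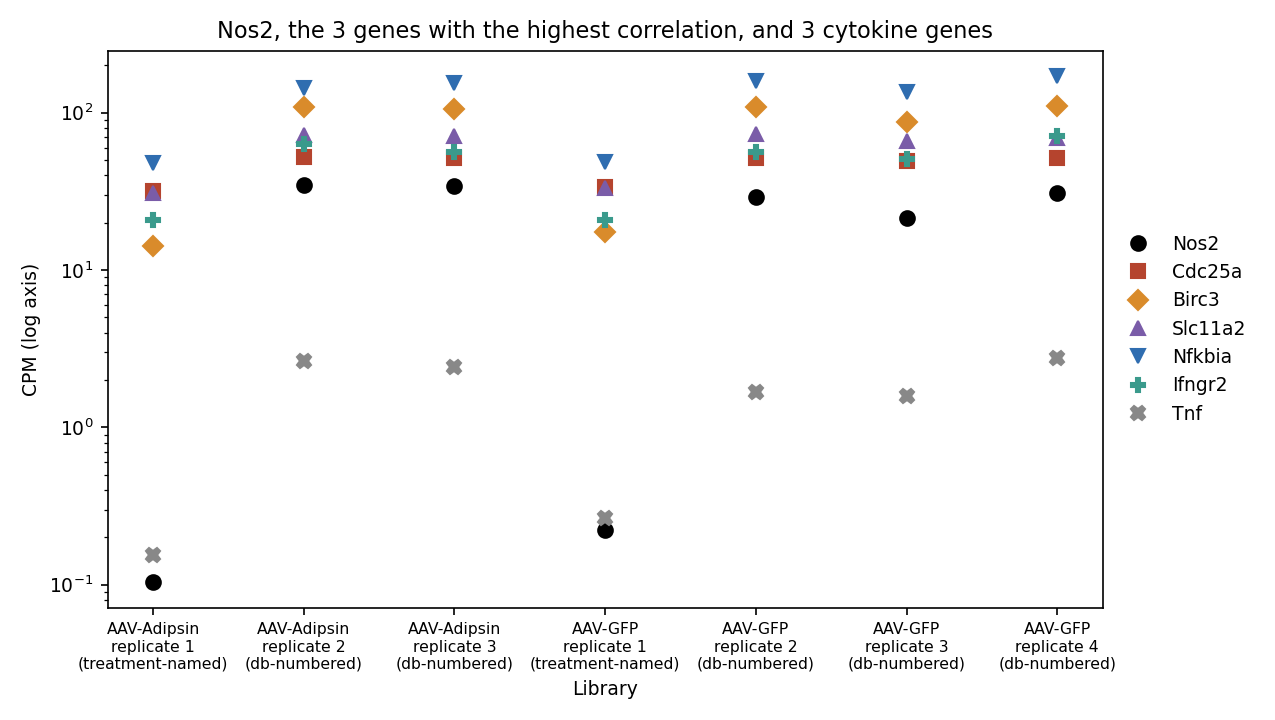
CPM on a log axis of Nos2, of the 3 genes with the highest correlation to it and of Nfkbia, Ifngr2 and Tnf in each library, AAV-Adipsin left of AAV-GFP. All 7 genes are lowest in the 2 treatment-named libraries, and the gap is widest for Nos2, at 0.104 and 0.222 CPM against 21.4 CPM or more.

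For the other genes the closest profiles were those of Sh3bp5l and Eefsec for Nos1 (r = 0.990 and 0.983) and of Capns1 and Tmsb10 for Gch1 (0.995 and 0.993). Ass1 was closest to Gjb1 and Slc35b1 (0.987 and 0.983), and Asl to Zfpl1 and Camkmt (0.992 and 0.968). Slc7a2 was closest to Kcnip4 and Tgfbr3 (0.986 and 0.985), and Arg2, on few counts, to Pcdhga12 and Mmab (0.972 and 0.955). Among the 7 genes themselves, the profiles of Gch1 and Ass1 had r = 0.947, and that of Slc7a2 ran against both, at r = -0.895 with Gch1 and r = -0.963 with Ass1. All of these are over 7 libraries that share the division by style.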

How the data were processed

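The authors deposited 1 table of raw read counts per Ensembl gene with a column per library; no column was left unused. Per the labels' protocols, library preparation used a kit for stranded mRNA. STAR and mm10 (GRCm38) are named in the submitters' processing notes. How counts were made, and with which strand setting and annotation, is not stated there. Symbols, coordinates and exon lengths came from GENCODE mouse release 21 (M21), which matched 51719 of 51912 identifiers.

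Counts were tested in R 4.3.3 with edgeR 4.0.16: filterByExpr by group (16504 genes), trimmed mean of M values scaling, robust quasi-likelihood F test, treatment as the only term, Benjamini-Hochberg adjustment over all genes tested, threshold 0.05, two-sided. Log2 CPM carried a prior count of 2. The steps were tested on simulated data. Alternatives were DESeq2 1.42.0, limma-voom (limma 3.58.1), other scalings and filters, style as a batch, the replicate number as a block, and leaving out libraries. The named genes were the 7, 21 fixed pathway and cytokine genes, the 2 of smallest p per pathway list, and genes of closest profile; others are said to be picked later. The genes and lists were chosen with earlier results of these data known. Low counts limit Nos2, Nos1 and Arg2: 3 counts correspond to 0.0667 to 0.104 CPM. Intervals describe counting error alone, because PCR copies were not marked.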

Additional observations from a re-analysis of the deposited data

Results flagged for a closer look

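The difference of Nos2 between AAV-Adipsin and AAV-GFP had opposite signs in the 2 description styles. It was -0.80 in log2 CPM in the treatment-named pair, with 4 and 10 counts, and 0.37 among the db-numbered libraries. The treatment groups did not overlap among the latter, as held in that direction for 8% of the genes tested. The difference between the styles was not tested. The treatment differences of Ass1, Arg2 and Slc7a2 also had opposite signs in the 2 styles.

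In 6 of the 52 tested genes of the pathway and member lists, 1 AAV-GFP library stood far from the other 3 by Dixon's 95% criterion, which chance meets in about 1 in 20 groups. The criterion was not applied to the other genes tested, and AAV-GFP holds libraries of both description styles. Nothing is therefore read from this count. AAV-GFP replicate 4 was the highest for Dynll1 at 63.6 CPM, Pcbd1 at 113 CPM and Pcbd2 at 20.8 CPM. AAV-GFP replicate 3 was the highest for Slc7a3 at 10.4 CPM. AAV-GFP replicate 1, the treatment-named library, was the highest for Gatm at 71.5 CPM and the lowest for Amd1 at 23.2 CPM.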

How the results depend on the processing

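Over 16 alternatives none of the 7 genes passed, and the smallest adjusted p was 0.727, for Nos2 with the replicate number as a block. The 6 pathway lists also gave 0 calls under each. Over all genes the 1 call became 0 without a filter on low counts, with limma-voom and without both treatment-named libraries, 4 with DESeq2, and 0 to 1 without single libraries (0 without AAV-Adipsin replicate 3 or any AAV-GFP replicate). Fitted signs turned for Nos2 with limma-voom (-0.44), and without both treatment-named libraries for Nos1 (-0.0039), Ass1 (0.0184) and Arg2 (0.30). Without single libraries the log2 fold changes ran from -0.24 to 0.77 for Nos2, -0.28 to 0.82 for Nos1, -0.0811 to 0.0292 for Gch1, -0.0868 to 0.10 for Ass1, -0.14 to 0.017 for Asl, -1.04 to 0.31 for Arg2 and -0.30 to 0.0399 for Slc7a2; the cause was not tested. With the replicate block edgeR called 1 gene, and Gch1 (0.0262) and Ass1 (0.0899) turned sign. Same-numbered libraries had deviations from their group means that correlated at 0.661, -0.011 and 0.007, so the numbers were not taken as pairs. The style difference of Nos2 ran from -7.54 to -6.74, and of Arg2 from -1.57 to -0.13, over 2 other scalings and single libraries left out. None of the 7 changed sign by style.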
